A study of Mus musculus with 4 samples.

Results

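Semaphorins, plexins and neuropilins were examined in hippocampi of newborn mice in which Zbtb20, a zinc finger transcription factor gene, was labelled as knocked out, and in hippocampi of their littermates labelled wildtype or control. The members were all probe sets whose only gene symbol starts with Sema and a digit or with Plxn, or is Nrp1 or Nrp2. They numbered 79 of 45037 probe sets and covered 32 symbols. These were 20 semaphorin genes (48 probe sets), 9 plexin genes (22 probe sets), both neuropilins (8 probe sets) and Plxna4os1 (1 probe set), an antisense transcript at the Plxna4 locus that the name rule took in. Hippocampal total RNA of postnatal day 2 was hybridised to 4 Affymetrix arrays. Of these, 2 were labelled knockout and 2 control, with replicate numbers 1 and 2 in each group. The labels give neither the strain, the sex nor the way the Zbtb20 allele was made, and they do not say how many animals an array held. The p-values below therefore measure only the spread between these arrays, pooled in part over all probe sets. That spread may be technical.

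Semaphorins are secreted or membrane-bound guidance cues that repel or attract growing axons and migrating neurons. Plexins are their receptors, and neuropilins are the co-receptors through which most secreted class 3 semaphorins reach class A plexins. In the developing hippocampus this family is known for keeping mossy fibre and entorhinal axons in their layers, for pruning axon branches and for steering interneurons.

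The deposited signals came on a different scale for each replicate number. The trimmed mean signal was 497 on both replicate 1 arrays, against 156 on the knockout and 158 on the control array of replicate 2. The Spearman correlation over all probe sets was 0.926 within replicate 1, 0.986 within replicate 2 and 0.818 to 0.832 between arrays of different number. Knockout was therefore set against control within each number, as pair 1 (replicate 1) and pair 2 (replicate 2), and each pair is 1 array against 1 array with no p-value. Over all probe sets above a brightness filter, the log2 differences had an SD of 0.46 in pair 1 and 0.24 in pair 2. A 2-fold difference was rarer in pair 2. Of the 9 Zbtb20 probe sets, 3 were lower under the knockout label in pair 1, 2 in pair 2 and 0 in both. The probe set that differed most between the labels had a signal of 2412 on the knockout and 4939 on the control array of pair 1, and of 592 and 284 on those of pair 2. Its place relative to the deleted part is unknown here, so the genotype labels were not settled by these signals, and all directions follow the labels. Neurod6, listed here as a hippocampal neuron marker, was at 7349 and 1745 on the arrays labelled knockout and 6997 and 1498 on those labelled control. That signal alone does not show where the tissue was cut. Of 9 measured genes of that list, 6 were higher in pair 1 and 7 in pair 2, with median log2 differences of 0.02 and 0.15. The widest were Fezf2 at -0.58 and 0.81 and Mef2c at 0.26 and 1.12. The list includes Zbtb20 itself, at 0.01 and 0.16 at its brightest probe set. The replicate 1 arrays also carried liver transcripts, with albumin (Alb) at 15195 on the knockout and 39309 on the control array, against 45.2 and 42.2 in replicate 2. No probe set on any array was at a signal of 0, the lowest being 0.3 in replicate 1 and 1 in replicate 2. A signal over 0 therefore does not by itself show a cell type. In bulk tissue, fewer cells of a type and less RNA per cell cannot be told apart.

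The widest difference in either pair was that of the secreted ligand Sema3c, and several class 3 ligands and both neuropilins differed in opposite directions in the 2 pairs. Sema3c, Sema3e, Nrp1 and Nrp2 were higher under the knockout label in pair 1 and lower under it in pair 2. Sema3f and Plxnc1 were lower in pair 1 and slightly higher in pair 2. No member passed the test over both pairs.

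Sema3c encodes a secreted ligand of both neuropilins that attracts cortical axons and acts in heart outflow formation. At its brightest probe set the signal was 5361 on the array labelled knockout and 1268 on the array labelled control of replicate 1. In replicate 2 it was 409 on the knockout and 1116 on the control array. The array labelled knockout was thus high in the first pair and low in the second, and the groups overlapped. Differences are given as log2(signal + 32.56), a scale that understates the change of dim genes. On it Sema3c differed by 2.05 in pair 1 and -1.38 in pair 2, which placed it at percentiles 99.9 and 0.0925 of all 27022 probe sets above the brightness filter. A second, dimmer Sema3c probe set had signals of 802 and 196 in pair 1, knockout first, and 57.1 and 79.8 in pair 2, and differed by 1.87 and -0.33. The 2 probe sets had the same sign in each pair.

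Sema3e, whose product signals through Plxnd1 without needing a neuropilin, had 883 on the knockout and 297 on the control array of pair 1, and 125 and 157 on those of pair 2. The difference was 1.47 in pair 1 and -0.27 in pair 2, where it was -0.45 with quantile normalization. Its 4 probe sets above the filter were all higher in pair 1 (0.37 to 1.47) and all lower in pair 2 (-0.50 to -0.08). Sema3f, a ligand of Nrp2 that repels hippocampal axons, had 439 on the knockout and 763 on the control array of pair 1, against 179 and 159 in pair 2. Its difference was -0.76 and 0.14. All 3 Sema3f probe sets were lower in pair 1 (-1.13 to -0.76) and higher in pair 2 (0.06 to 0.14).

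Other class 3 genes were dimmer. Sema3b, a neuropilin ligand, had 125 on the knockout and 45.3 on the control array of pair 1, and 64.8 and 64.5 on those of pair 2. All 4 signals lay below the median of their array, and the probe set was just above the filter, with a mean log2 value of 6.70 against a minimum of 6.63. Its difference was 1.02 in pair 1 and 0.00416 in pair 2, and the pair 2 value turned negative with quantile normalization (-0.04) and when arrays were centred on the 75th percentile (-0.01). Sema3d, a guidance cue also known from heart and vein development, had 56.3 on the knockout and 103 on the control array of pair 1, and 85.8 and 89.9 in pair 2, a difference of -0.61 and -0.05. Sema3a, the founding repellent that acts through Nrp1, differed by -0.07 and 0.22. Sema3g, known from blood vessels, was below the filter, with signals of 52.2 and 16.5 in pair 1, knockout first, and 45.9 and 49.0 in pair 2.

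**Figure D1:**
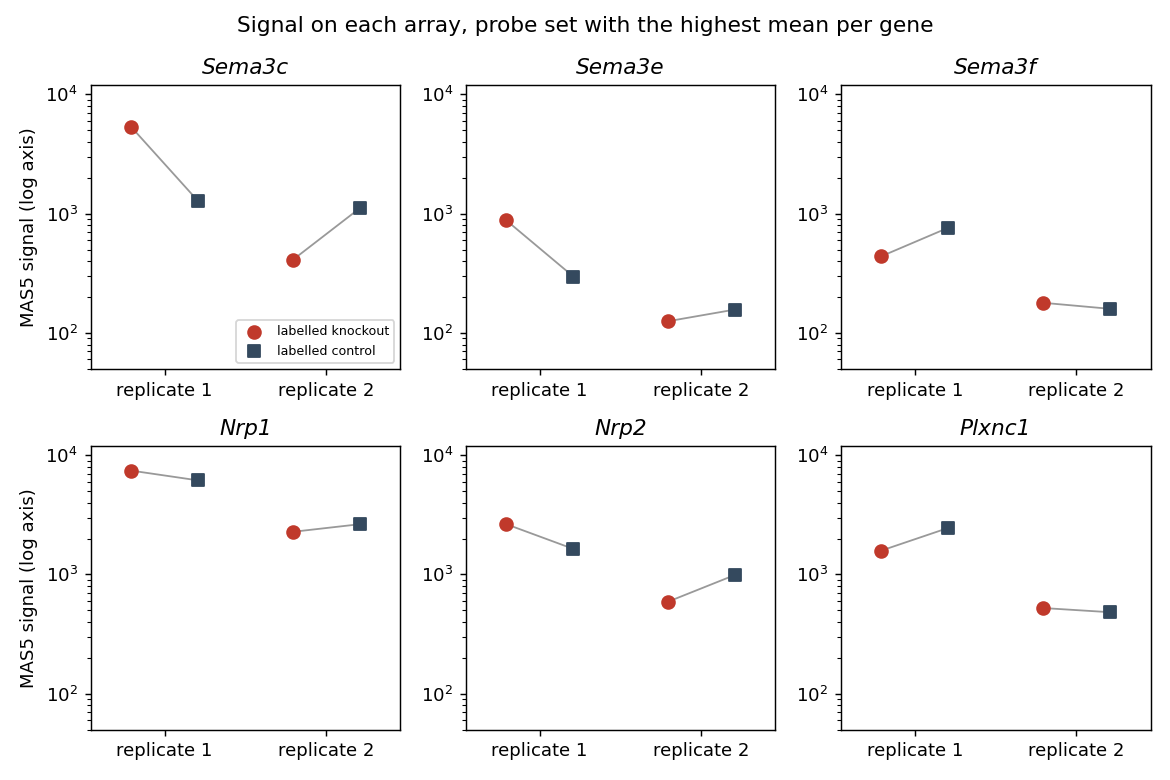
MAS5 signal (log axis) of 6 genes on each of the 4 arrays, with the array labelled knockout (circle) left of the array labelled control (square) in each replicate. Grey lines join the arrays of a pair: Sema3c is at 5361 against 1268 in replicate 1 and at 409 against 1116 in replicate 2, and the lines of Sema3e, Nrp1 and Nrp2 also slope one way in replicate 1 and the other way in replicate 2.

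Both neuropilins followed Sema3c and Sema3e in direction. Nrp1, the co-receptor for Sema3a and for vascular endothelial growth factor, had 7423 on the knockout and 6137 on the control array of pair 1, against 2275 and 2638 in pair 2. At that probe set the difference was 0.27 and -0.21. The other 3 Nrp1 probe sets were farther apart, at 0.57 to 0.82 in pair 1 and -0.55 to -0.41 in pair 2. Nrp2, the co-receptor for Sema3f, had 2642 on the knockout and 1636 on the control array of pair 1, and 589 and 991 on those of pair 2, a difference of 0.68 and -0.72. Its other 3 probe sets differed by 0.50 to 0.61 in pair 1 and by -0.94 to -0.38 in pair 2. All 8 neuropilin probe sets were higher in the knockout-labelled array of pair 1 and lower in that of pair 2, as deposited and under every scaling and pseudocount tried. Among all probe sets 23.3% had that pattern. Probe sets of a gene share its transcript and are not independent.

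**Figure D2:**
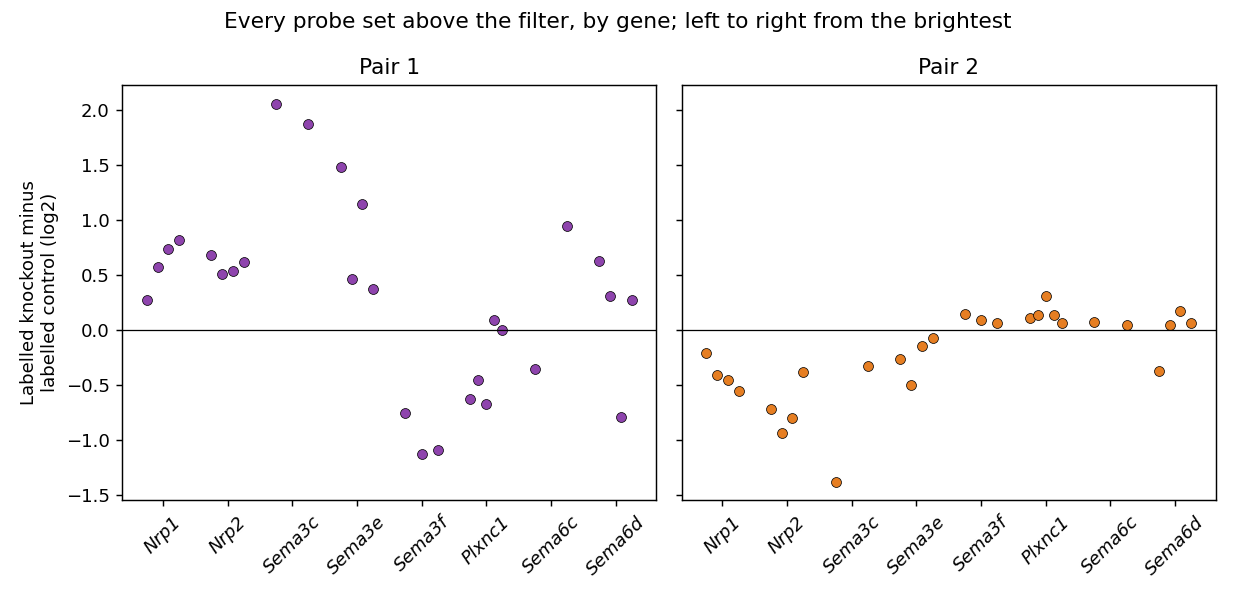
Difference between the arrays labelled knockout and control (log2) in pair 1 (left) and pair 2 (right), for every probe set above the filter of 8 genes, each point a probe set and points of a gene placed from the brightest to the dimmest. The 8 neuropilin points lie above 0 in pair 1 (0.27 to 0.82) and below 0 in pair 2 (-0.94 to -0.21), while the Sema6c and Sema6d points lie on both sides of 0 in pair 1.

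Marker lists of other cells also differed between the arrays. Of 10 genes of GABAergic interneurons, which migrate under neuropilin and class 3 semaphorin control, 9 were higher in the knockout-labelled array in pair 1 and 10 were lower in pair 2, with medians of 0.28 and -0.87. Their summed signal was 15312 and 2674 on the arrays labelled knockout and 11860 and 4924 on those labelled control. Of 8 measured genes of subiculum and retrosplenial cortex, 7 had the reverse order, lower in pair 1 and higher in pair 2. That order held for 3447 of all 12581 genes. Medians of the 8 were -1.13 and 1.38. Their sums were 16221 and 10353 on the arrays labelled knockout, against 40657 and 3732 on those labelled control. All 12 liver genes above the filter were lower in pair 1, where they summed to 20664 on the knockout and 60480 on the control array. In pair 2 they summed to 516 and 494. Of 9 astrocyte and radial glia genes, 5 were higher in pair 1 and 8 were lower in pair 2 (medians 0.03 and -0.36). Among them the water channel gene Aqp4 was at 1.46 and -1.42. The list summed to 46755 and 11703 on the arrays labelled knockout and 44554 and 13419 on those labelled control. Of 7 choroid plexus genes, 5 were higher in both pairs, as were 9 of 29 member genes and 2821 of all 12581 genes. Medians of the choroid plexus genes were 0.44 and 0.43. Their sums were 76141 and 9827 on the arrays labelled knockout and 63870 and 4017 on those labelled control. Endothelial and pericyte genes numbered 10, with 7 lower in pair 1 and 6 lower in pair 2. The order of the neuropilins held for 2 of them, against 3289 of all 12581 genes. Sums of the 10 were 5548 and 1579 on the arrays labelled knockout and 4910 and 1726 on those labelled control. Medians of the other lists were 0.06 and -0.01 for oligodendrocyte lineage, -0.05 and 0.13 for Cajal-Retzius cells and 0.01 and -0.20 for microglia. They were -0.18 and -0.14 for meninges and -0.07 and 0.48 for deep cortical layers. Single genes differed more. Of 10 meninges genes, 3 were over 2-fold lower in pair 1, and 1 was over 2-fold higher and 1 lower in pair 2. Of 8 deep-layer genes, 1 was over 2-fold lower in pair 1, and 1 was over 2-fold higher and 2 lower in pair 2. Of 5 Cajal-Retzius genes, 1 was over 2-fold higher in pair 1. The part of any of these cells in the semaphorin, neuropilin and plexin values was not tested.

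Promoters of the 4 genes whose every probe set above the filter was higher in pair 1 and lower in pair 2 are shown so that their sequence can be set beside that pattern. They are from RefSeq on GRCm38.p6, run from 250 bases before to 50 bases after the annotated start, and read 5′ to 3′ on the gene's strand, which is the plus strand for each. Sema3c lies at chr5:17574566-17574865, Sema3e at chr5:14025026-14025325, Nrp1 at chr8:128358823-128359122 and Nrp2 at chr1:62703067-62703366. Capitals mark matches to the GC box GGGCGG on either strand.
Sema3c: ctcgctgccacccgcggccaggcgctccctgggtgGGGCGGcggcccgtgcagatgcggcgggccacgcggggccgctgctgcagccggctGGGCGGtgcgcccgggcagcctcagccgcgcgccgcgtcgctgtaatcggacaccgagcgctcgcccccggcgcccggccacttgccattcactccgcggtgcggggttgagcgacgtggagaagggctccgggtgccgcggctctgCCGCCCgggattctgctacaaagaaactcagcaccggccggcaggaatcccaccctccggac
Sema3e: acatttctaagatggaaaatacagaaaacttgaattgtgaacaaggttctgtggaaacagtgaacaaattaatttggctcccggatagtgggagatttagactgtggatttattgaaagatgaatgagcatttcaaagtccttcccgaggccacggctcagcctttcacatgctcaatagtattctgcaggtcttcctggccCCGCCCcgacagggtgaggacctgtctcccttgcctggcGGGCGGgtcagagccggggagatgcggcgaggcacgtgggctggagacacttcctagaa
Nrp1: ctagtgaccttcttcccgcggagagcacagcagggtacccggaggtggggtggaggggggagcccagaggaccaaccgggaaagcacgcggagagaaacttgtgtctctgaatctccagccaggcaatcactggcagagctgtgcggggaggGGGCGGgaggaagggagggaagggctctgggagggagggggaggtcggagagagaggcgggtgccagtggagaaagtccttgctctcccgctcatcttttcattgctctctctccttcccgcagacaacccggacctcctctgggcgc
Nrp2: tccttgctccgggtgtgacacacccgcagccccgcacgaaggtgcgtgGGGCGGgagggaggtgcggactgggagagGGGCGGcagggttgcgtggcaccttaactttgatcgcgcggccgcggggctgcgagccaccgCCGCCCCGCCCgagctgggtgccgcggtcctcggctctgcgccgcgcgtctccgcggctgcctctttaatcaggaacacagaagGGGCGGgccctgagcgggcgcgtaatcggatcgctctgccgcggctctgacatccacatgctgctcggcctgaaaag

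The GC box was found 3 times in the Sema3c window, 2 times in that of Sema3e, 1 time in that of Nrp1 and 5 times in that of Nrp2, where 2 matches overlap. It occurred in 27 of 37 promoter windows found for 26 of the 32 member symbols, and in 35.7% of 32851 windows of the same length in the RefSeq table. The letters TATAAA, on either strand, were in 0 of the 37 windows and in 13.6% of all windows. The windows held 42 (Sema3c), 11 (Sema3e), 14 (Nrp1) and 37 (Nrp2) CpG dinucleotides, against a median of 7 over all windows and 15 over the 37. A match is a description of these letters, and the windows of Plxnb1 (5), Plxnc1 (4) and Sema4g (4), genes without the pattern in the arrays, also held GC boxes. Sema3d, Sema3a, Sema3e and Sema3c start in that order on the plus strand of chromosome 5, within 5.19 megabases of each other. Their pair 1 differences, in that order, were -0.61, -0.07, 1.47 and 2.05. In pair 2 they were -0.05, 0.22, -0.27 and -1.38. The neighbours Sema3e and Sema3c had the same sign in each pair, and Sema3d and Sema3a had the same sign in pair 1 only.

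Among the transmembrane semaphorins, Sema6b was the 1 gene over 2-fold apart in a pair. The product of Sema6b is a plexin ligand of class 6 that acts on mossy fibre and commissural axons. It had 318 on the knockout and 121 on the control array of pair 1, and 122 and 103 on those of pair 2, so the array labelled knockout was higher in both pairs (1.19 and 0.19). Sema6d, a ligand of Plxna1, had a bright probe set at 4218 against 2731 in pair 1 and 710 against 929 in pair 2, knockout first. That probe set differed by 0.62 and -0.37, and of the 4 Sema6d probe sets it alone was lower in pair 2. The dimmer ones were at 0.31 and 0.04, at -0.79 and 0.17, and at 0.27 and 0.06. The probe sets of Sema6c also disagreed in pair 1. The brighter was at -0.35 in pair 1 and the dimmer at 0.95, with 0.07 and 0.04 in pair 2. Sema6a, a ligand of Plxna2 and Plxna4, differed by -0.20 and -0.09, and its dimmer probe sets by -0.13 and 0.14 and by 0.10 and -0.03.

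At their brightest probe sets the 6 class 4 genes stayed within 0.33 of 0 in pair 1 and within 0.16 in pair 2. Sema4f, whose product is found at synapses, had 2183 on the knockout and 1734 on the control array of pair 1, and 255 and 252 in pair 2. Its difference was 0.33 and 0.02, the second turning to -0.00183 with centring on the 75th percentile. A dimmer Sema4f probe set was at 0.47 and -0.18. Sema4c and Sema4g, both ligands of Plxnb2, differed by 0.15 and 0.16 and by -0.11 and 0.04. Sema4d, the ligand of Plxnb1, differed by -0.08 and 0.11 (0.11 in pair 1 at a dimmer probe set), Sema4a by -0.23 and -0.02, and Sema4b by -0.12 and -0.12. Sema7a, the membrane-anchored ligand of Plxnc1 and beta1 integrin, differed by -0.00892 and 0.15.

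Class 5 semaphorins carry thrombospondin repeats. Sema5a differed by 0.22 in pair 1 and -0.71 in pair 2 at its brightest probe set, where the pair 2 signals were 53.6 on the knockout and 108 on the control array. With quantile normalization the pair 2 value there was -1.27. A second Sema5a probe set was not lower in pair 2, at 0.05 and 0.17. Sema5b differed by 0.37 and 0.000534, and the pair 2 value turned to -0.04 with quantile normalization and to -0.02 with centring. The other Sema5b probe set above the filter went the other way in pair 1, at -0.34, with 0.05 in pair 2.

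Among the receptors, the 8 plexin genes above the filter were split in pair 1, with 4 higher and 4 lower (48.6% of all genes were higher). All 8 were higher in the knockout-labelled array in pair 2, where 49.8% of all genes were, each gene taken at its brightest probe set. The pair 2 values had a median of 0.16 against -0.00063 over all genes. The SD of pair 2 over all probe sets was 0.24. They lay between percentile 53.2 (Plxna1) and 98.9 (Plxnd1) of pair 2. All 8 stayed higher in pair 2 under each scaling and pseudocount tried. Plxnd1, the receptor of Sema3e and a regulator of vessel growth, had 737 on the knockout and 625 on the control array of pair 1, and 149 and 88.7 on those of pair 2. It was higher in both pairs, by 0.23 and 0.58, and by 0.94 in pair 2 with quantile normalization.

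Class A plexins, the partners of neuropilins, were led by Plxna2, which guides mossy fibres together with Sema6a. It had 6328 on the knockout and 4869 on the control array of pair 1, and 672 and 625 in pair 2, a difference of 0.38 and 0.10. Of its 4 probe sets all were higher in pair 1, and 1 was lower in pair 2 (-0.25). Plxna1 differed by 0.26 and 0.03 at its brighter probe set and by -0.25 and 0.00159 at the dimmer, whose pair 2 value turned to -0.04 with quantile normalization and to -0.02 with centring. Plxna3, which acts in pruning of mossy fibres, differed by 0.11 and 0.19. Plxna4, a co-receptor partner in Sema3a signalling, differed by -0.25 and 0.15 at its brighter probe set and by 0.31 and -0.06 at the dimmer. Plxna4os1 was below the filter, with 28.4 on the knockout and 103 on the control array of pair 1, and 45.5 and 37.4 in pair 2.

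Class B plexins, receptors of class 4 semaphorins, had the reverse order, lower in the first pair and higher in the second. Plxnb1 differed by -0.35 and 0.18 and Plxnb2, which acts in neuronal progenitor proliferation, by -0.39 and 0.28. Plxnb3, known from oligodendrocytes, was below the filter at both probe sets. Plxnc1, the receptor of Sema7a, had 1581 on the knockout and 2456 on the control array of pair 1, and 523 and 482 in pair 2. Its difference was -0.62 and 0.11. Of its 5 probe sets above the filter, 4 were lower in pair 1 (-0.68 to -0.01), 1 was at 0.09, and all 5 were higher in pair 2 (0.06 to 0.31); the -0.01 turned to 0.07 with quantile normalization.

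**Figure D3:**
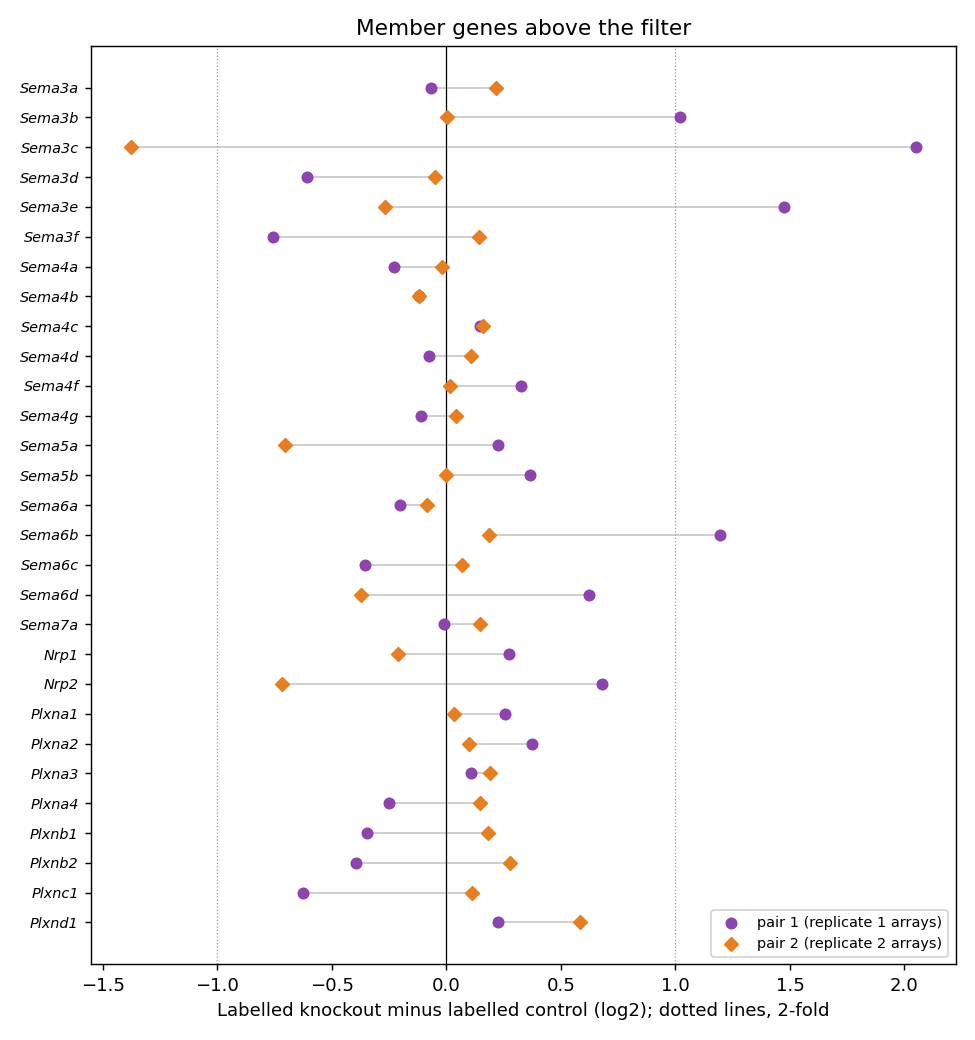
Difference between the arrays labelled knockout and control (log2) of the 29 member genes above the filter, each at its brightest probe set, for pair 1 (circles) and pair 2 (diamonds); dotted lines mark 2-fold. Sema3c spans 2.05 to -1.38, Sema3b, Sema3e and Sema6b pass 2-fold in pair 1, and every plexin diamond lies right of 0.

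Over the whole family, 64 of the 79 probe sets, for 29 of 32 symbols, lay above the filter, and the other 15 were not tested. Of the 64, 6 were over 2-fold higher in the knockout-labelled array of pair 1, where 1.68% of all probe sets were. They belonged to Sema3b, Sema3c, Sema3e and Sema6b. In pair 1, 2 probe sets, both of Sema3f, were over 2-fold lower (2.69% of all). In pair 2, 0 were over 2-fold higher (0.248% of all) and 1, of Sema3c, was over 2-fold lower (0.27% of all).

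With a smaller size of 1.2-fold in both pairs, chosen after the values were seen, 12 of the 64 probe sets were higher in the first pair and lower in the second (3.14% of all). These were 4 of Nrp2, 3 of Nrp1, 2 each of Sema3c and Sema3e, and 1 of Sema6d. By gene, each at its brightest probe set, they were 4 of 29, namely Nrp2, Sema3c, Sema3e and Sema6d, against 3.84% of all genes. The dimmer Sema6d probe sets did not share the pattern. The reverse pattern held for 2 of the 64, of Plxnb2 and Plxnc1 (2.94% of all), and 0 were over 1.2-fold in the same direction in both pairs (2.23% of all). With no size cut, the order of the neuropilins held for 6 of 29 genes (20.7%), a smaller share than the 3289 of all 12581. By probe set, that order held for 20 of the 64 (31.2%), against 23.3% of all. The reverse order, with no size cut, held for 10 of 29 genes (34.5%), against 3447 of all 12581.

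Opposite signs in the 2 pairs occurred at 41 of the 64 probe sets (53.8% of all) and for 16 of 29 genes (53.5% of all genes). Across the 64 probe sets the pair 1 and pair 2 differences had a Pearson's r of -0.58, against -0.21 over all 27022, and of -0.48 without Sema3c. With 1 probe set per gene r was -0.58 over 29 genes, -0.32 without Sema3c and -0.25 without Sema3c, Nrp1 and Nrp2. These are descriptions over probe sets that share arrays and, in part, transcripts.

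**Figure D4:**
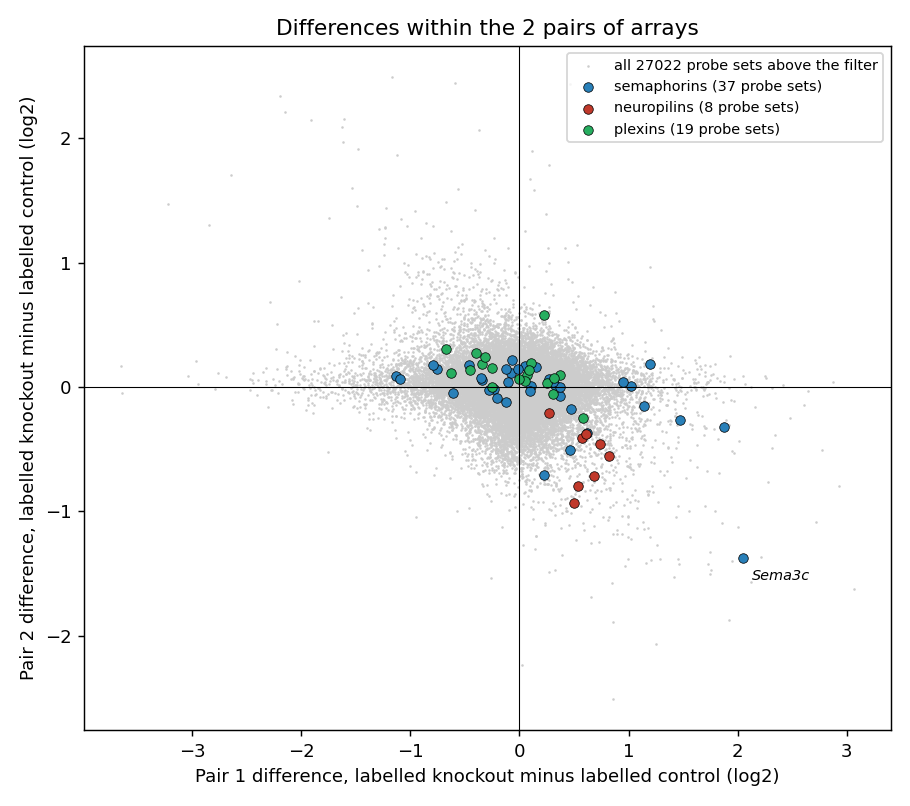
Difference in pair 2 (y, log2) against difference in pair 1 (x, log2) for every probe set above the filter (grey) and for the 64 member probe sets by family (coloured). The neuropilins lie together at the lower right, with Sema3c at 2.05 and -1.38 beyond them, and most plexins lie near or above 0 on the y axis.

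Over both pairs, limma's fit with the replicate number as a block called 0 of 64 member probe sets and 0% of all 27022 at an adjusted p of 0.05. At an unadjusted p under 0.05 it found 1 of the 64, Sema6b, where 1.22% of all were. Sema6b differed by 0.69 ± 0.28 (log2, limma's moderated SE, n = 2 pairs), with an unadjusted p of 0.0425 and an adjusted p of 0.9999 in limma's blocked fit. Plxnd1 followed at 0.40 ± 0.19, with an unadjusted p of 0.0661 and the same adjusted p in limma. Each SE in this paragraph draws on a variance pooled over all probe sets (5.98 prior against 1 residual degree of freedom). It is not the spread of a gene's own pair differences, which for Sema6b were 1.19 and 0.19. For the genes that reversed between pairs the means over both pairs were as follows. Sema3c was at 0.34 ± 0.67, Sema3e at 0.60 ± 0.37, Nrp1 at 0.03 ± 0.18 and Nrp2 at -0.02 ± 0.31, and none of the 4 passed limma's test (adjusted p of 0.9999 for each). Without the replicate block, limma called 0 probe sets and found 0.0185% of all, and 0 of the 64, at an unadjusted p under 0.05. With 2 pairs an exact sign-flip test of a single gene could not go below a two-sided p of 0.5.

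Partners of the pathway, taken from lists chosen with earlier results known, gave 0 calls in the same fit. Of 28 measured intracellular effectors, 19 were higher in pair 1 and 18 were lower in pair 2, with medians of 0.13 and -0.05. Of all 12581 genes, 6113 were higher in pair 1 and 6307 were lower in pair 2, with medians of -0.01 and -0.00063. Rnd2, which controls migration of newborn cortical neurons, stood apart in both pairs. It had 2393 on the knockout and 879 on the control array of pair 1, and 186 and 597 on those of pair 2, a difference of 1.41 and -1.53, the same order as Sema3c. It was the 1 effector over 2-fold apart in either pair.

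Cfl1, the actin-severing protein cofilin, differed by -0.10 and -0.77, Fes, a tyrosine kinase, by -0.51 and -0.09, and Mical1, a redox enzyme that disassembles actin below plexins, by 0.48 and 0.18. The collapsin response mediator genes Crmp1, Dpysl2, Dpysl3, Dpysl4 and Dpysl5 lay between -0.19 and 0.36 in pair 1 and between -0.15 and 0.16 in pair 2. All 9 measured co-receptors other than neuropilins had opposite signs in the 2 pairs (53.5% of all genes), with 4 higher and 5 lower in pair 1. Chl1, the middle one, was at -0.000655 there and turned positive with quantile normalization (0.00159) or with arrays centred on the 75th percentile (0.00132). The adhesion molecule gene Nrcam was at -0.34 and 0.50, its relative Chl1 at 0.46 in pair 2, Itga1 at 0.46 and -0.0012, and Ptk7 at 0.42 and -0.02. None was over 2-fold apart. Of 5 measured other ligands of the neuropilins, 4 were lower in pair 1 and 3 in pair 2 (6464 and 6307 of all 12581 genes). Vegfa was at -0.62 and -0.12, Vegfb at -0.38 and -0.36, Pgf at -0.40 and 0.00326 and Tgfb1 at 0.09 and 0.29.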

How the data were processed

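Biotin-labelled total RNA of hippocampus was hybridised to 4 arrays, 2 per group. The authors deposited linear signal intensities; the submitters' processing notes name MAS5. Its version, scaling target and background setting are not given in the sources used here. The number of arrays limits the precision. Probe sets were named from the platform annotation, and each of the 79 members was found by Entrez ID in a RefSeq table. Of 45037 probe sets, 932 with several symbols and 9160 with none were not named. From the intensities log2(signal + 32.56) was computed, the pseudocount being the 20th percentile of all values. The filter kept probe sets (27022) whose mean log2 value lay over the 40th percentile, and the brightest kept probe set stands for a gene.

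Knockout minus control was tested with limma 3.58.1 under R 4.3.3 (lmFit, eBayes with trend), with the replicate number as a block because arrays of a number share a scale, and Benjamini-Hochberg adjustment over all kept probe sets. The labels do not say that the numbers mark litters or days. Residual degrees of freedom were 1. The prior that eBayes drew from all kept probe sets added 5.98, so the SEs and p-values rest mostly on that pooled variance. The script was tested on simulated data. Members, gene lists and markers were chosen with earlier results of these data known. By rule every member gene is named, and all 4 signals are given for those over 2-fold apart in a pair, both neuropilins and the 6 others of smallest p. Signals of other genes are given where the text turns on them. Up to 4 genes of each pathway list are named by rule, and the 5 collapsin response mediators were added after their values were seen. Alternatives were other scalings, pseudocounts, filters, probe set rules and eBayes settings, no block, and leaving out arrays.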

Additional observations from a re-analysis of the deposited data

How the results depend on the processing

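The count of probe sets called was 0 in every setting tried, for all probe sets and for members, with the replicate block and with no replicate block. With no replicate block, limma found 5 probe sets (0.0185%) at an unadjusted p under 0.05 and 0 members. Of 212 pair differences of named genes under other settings, 209 moved by less than the SD of that pair over all probe sets (0.46 and 0.24). So did all 108 medians of gene groups. The 3 that moved more were Plxnd1 in pair 2 (0.94 with quantile normalization) and, with a gene's probe sets averaged, Sema3c in pair 2 (-0.85) and Sema3e in pair 1 (0.86). Another filter, or 1 probe set per gene, leaves a probe set's difference unchanged by construction, so those settings could not move it. The SD is also wide for small differences. Sema4f in pair 2 ran from -0.08 to 0.03 and Nrp1 in pair 1 from 0.25 to 0.60 without counting as moved. The count of member probe sets over 2-fold apart in pair 1, 8 in the main setting, was 5 with trimmed mean scaling, quantile normalization, the 40th percentile pseudocount or the 60th percentile filter, 13 with no filter, 4 with 1 probe set per gene and 3 with probe sets averaged. In pair 2, 1 in the main setting, it was 3 with quantile normalization, 2 with no pseudocount and 0 with probe sets averaged. Opposite signs, at 41 probe sets, were at 16 and 15 with 1 value per gene, since fewer features were counted.

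Leaving out replicate 1 or 2 leaves the other pair, a value with no test: -1.38 to 2.05 for Sema3c, -0.27 to 1.47 for Sema3e, -0.21 to 0.27 for Nrp1, -0.72 to 0.68 for Nrp2, 0.19 to 1.19 for Sema6b and 0.23 to 0.58 for Plxnd1. Leaving out 1 array, with no replicate block, mixes the scales by construction. Differences then ran from -1.47 to 2.14 for Sema3c, -0.66 to 1.87 for Sema3e, -0.81 to 0.88 for Nrp1 (-0.57 without control replicate 2), -1.07 to 1.03 for Nrp2 (0.33 without control replicate 1), -0.81 to 1.62 for Plxnd1 (-0.64 without knockout replicate 1) and 0.10 to 1.28 for Sema6b. No adjusted p of limma was under 0.9986 in these fits.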
